A study of Capra hircus with 9 samples.

Results

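The goat mRNA table held 30147 transcripts, and 275 of them (0.912%) carried a RefSeq accession that starts with NM_. These 275 transcripts, the members described here, were every row with that prefix, and no measured value was used to choose them. All other 29872 rows carried the prefix XM_. A RefSeq NM_ record is a curated mRNA that rests on a deposited sequence, whereas an XM_ record is a gene model predicted from the genome. In the goat the curated records came largely from genes cloned for their part in reproduction, milk, meat, hair, fat or immunity, so the collection mixes well known genes of adult tissues with a small number of genes of the oocyte and embryo. Of the 275 members, 273 were paired with a gene symbol and together they named 266 genes. Accessions of 6 genes were present more than once, with 3 members for AZIN1 and 2 each for KANSL2, OAZ3, PEG10, VEGFA and IGF2.

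The study compared goat embryos made by in vitro fertilisation (IVF) at the 2-cell stage (IVF-2c) and the 8-cell stage (IVF-8c) with 8-cell embryos made by somatic cell nuclear transfer (SCNT-8c), in which the nucleus of a cultured body cell replaces the chromosomes of an oocyte. Each condition was 1 library from 1 pool of whole embryos, and the amplified cDNA came from a low-input kit. The oocytes for all of them were taken from slaughterhouse ovaries and matured in culture, and cumulus cells were stripped from the oocytes or zygotes. The donor nuclei of SCNT-8c came from cultured, serum-starved fibroblasts of 1 female Saanen fetus. The SCNT embryos were joined by electric pulses and activated with ionomycin and dimethylaminopurine, whereas sperm fertilised the IVF embryos. Nuclear transfer, this chemical activation, the donor genotype and the library therefore cannot be told apart. No gene was altered in the sequenced embryos, and no compound was under test beyond this activation.

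In mammals the first cleavages run on mRNA and protein that the oocyte stored, and these stores are broken down while the embryo's own genome is switched on. In the goat this switch, embryonic genome activation, is placed at the 8-cell stage. The comparison of IVF-8c with IVF-2c therefore spans the switch, and the comparison of IVF-8c with SCNT-8c sets a fertilised genome beside a transferred one at the same stage. All levels below are FPKM, fragments per kilobase of transcript set against the mapped fragments of the library, which can be compared between genes. FPKM is a share of the library, so a change in RNA per embryo or in cell number cannot be told apart from a change in a gene's own mRNA. Depth could not be recovered from FPKM, so no counting interval is given, and a single library per condition leaves no replicate spread and no test: a ratio compares these libraries only.

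The members were present at high levels more often than the predicted transcripts. Of 275 members, 145 (52.7%) reached 1 FPKM in at least 1 library, against 47.2% of XM_ transcripts, and 35 (12.7%) reached 100 FPKM against 5.02%. At 1000 FPKM the shares were 2.91%, or 8 members, against 0.512%. At the other end the sets were close: 51 members (18.5%) were listed at 0 in all 3 libraries, against 17.3% of XM_ transcripts, and a further 79 members were above 0 but under 1 FPKM throughout. The number of members at 1 FPKM or more was 119 at the 2-cell stage, 119 in IVF-8c and 123 for SCNT-8c, and 95 members were at that level in all 3. Over the 145 members that reached 1 FPKM in at least 1 library, the median was 7.02 FPKM in the 2-cell library. Over the same 145 it was 8.29 FPKM in IVF-8c beside 7.86 FPKM in SCNT-8c.

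**Figure D1:**
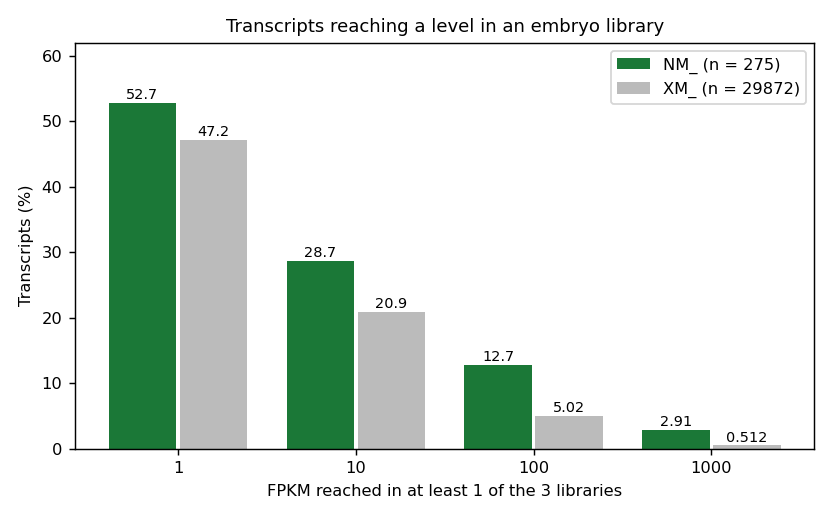
Share of NM_ (green) and XM_ (grey) transcripts, in percent, whose highest FPKM over the 3 embryo libraries reached 1, 10, 100 or 1000. The share of NM_ transcripts was above that of XM_ transcripts at every level, from 52.7% against 47.2% at 1 FPKM to 2.91% against 0.512% at 1000 FPKM.

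One gene carried most of the members' summed FPKM. FPKM is divided by transcript length, and lengths were not examined, so this is not a share of RNA. TMSB4X (NM_001287029.1), which encodes thymosin beta 4, a small protein that binds actin monomers, stood at 126723 FPKM in the 2-cell library, 176956 FPKM in IVF-8c beside 172493 FPKM in SCNT-8c. It ranked 2 of all mRNA transcripts in IVF-2c and 1 in both 8-cell libraries. TMSB4X alone was 9.08%, 15.7% and 15.9% of the summed mRNA FPKM in the 2-cell, IVF 8-cell and SCNT 8-cell libraries. The sum itself was 1395697, 1128122 and 1084391 FPKM, so the share of TMSB4X rose by more than its FPKM. All members together made up 11.5%, 17.4% and 18.0% of the summed mRNA FPKM, and without TMSB4X they made up 2.64%, 2.02% and 2.52% of the rest. The log2 ratio of TMSB4X between IVF-8c and IVF-2c was 0.48, well inside the limit used below. TMSB4X, the ribosomal protein genes, FTH1, HSP70.1 and the PAG genes have near-identical copies, so reads may have been split or shared among copies and their levels are uncertain to that extent.

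The other members at the top of the list were housekeeping genes together with the membrane protein CD81 and the lipid carrier FABP3. FTH1, the iron-storing heavy chain of ferritin, was at 1372 FPKM in the 2-cell library, 2160 FPKM in IVF-8c beside 2995 FPKM in SCNT-8c. SOD1, which removes superoxide, was at 2696, 1550.1 and 1591 FPKM in the same order. GABARAPL2, an autophagy protein, was at 1189, 1693 and 1719 FPKM. These 3 genes were abundant in every library, and none of their ratios passed the limit. SERF2, a small protein that affects protein aggregation, was the flattest of the abundant members, at 1647, 1615 and 1493 FPKM, and PSMA6, a proteasome subunit, was at 1068, 766.3 and 967.7 FPKM.

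The embryo label was checked against marker genes, read from all transcripts of a gene. All 9 of the 15 oocyte and early embryo markers that were found were at 1 FPKM or more in every library, with a summed level of 15478 FPKM in the 2-cell library, 9636 FPKM in IVF-8c beside 11228 FPKM in SCNT-8c. The 8 cumulus and granulosa cell markers found summed to between 60.8 and 85.7 FPKM. Among these FSHR, INHA, INHBA and CYP19A1 were at or near 0 (at most 0.257 FPKM) and CYP11A1 was at most 1.73 FPKM, while HAS2 was at 16.7, 20.7 and 21.3 FPKM, TNFAIP6 was at 2.22, 26.6 and 51.2 FPKM and STAR at 47.2, 11.4 and 12.4 FPKM. The 9 fibroblast markers found summed to 152, 89.4 and 104 FPKM, of which DCN was 116.6, 56.3 and 57.4 FPKM, and the 3 sperm markers found summed to between 0.737 and 4.55 FPKM.

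A member was called higher or lower when the log2 ratio of FPKM + 0.1 was above 2 in size and the higher library had at least 1 FPKM. Ratios on this scale understate the change of low transcripts. A member with at least 1 FPKM in either library entered a comparison, which was 139 members for IVF-8c against IVF-2c, 137 for SCNT-8c against IVF-2c and 135 for IVF-8c against SCNT-8c. The same rule was applied to the whole mRNA table as a background.

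From IVF-2c to IVF-8c, 27 of 139 members (19.4%) were higher and 14 (10.1%) were lower, against a background of 11.9% higher and 7.87% lower among 13898 transcripts. Within a log2 ratio of 1 in either direction lay 59 members (42.4%). Above 1 were 37 of 139 members and below -1 were 43, beside 2594 and 4023 of 13898 transcripts. The median was -0.20 for members, with quartiles of -1.20 and 1.11, and -0.42 for all transcripts tested. Scaling the libraries by the median ratio over 18245 transcripts moved the log2 ratio of an abundant transcript by 0.38, and that of a low one by less, since the pseudocount was added afterwards. It turned the members' median to 0.16 and left 28 higher and 13 lower. The sign of a small ratio therefore depended on the scaling, and only calls past the limit are described as rises or falls below. Among the 27 that were higher, 8 were listed at 0 in IVF-2c, where no fold can be given.

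**Figure D2:**
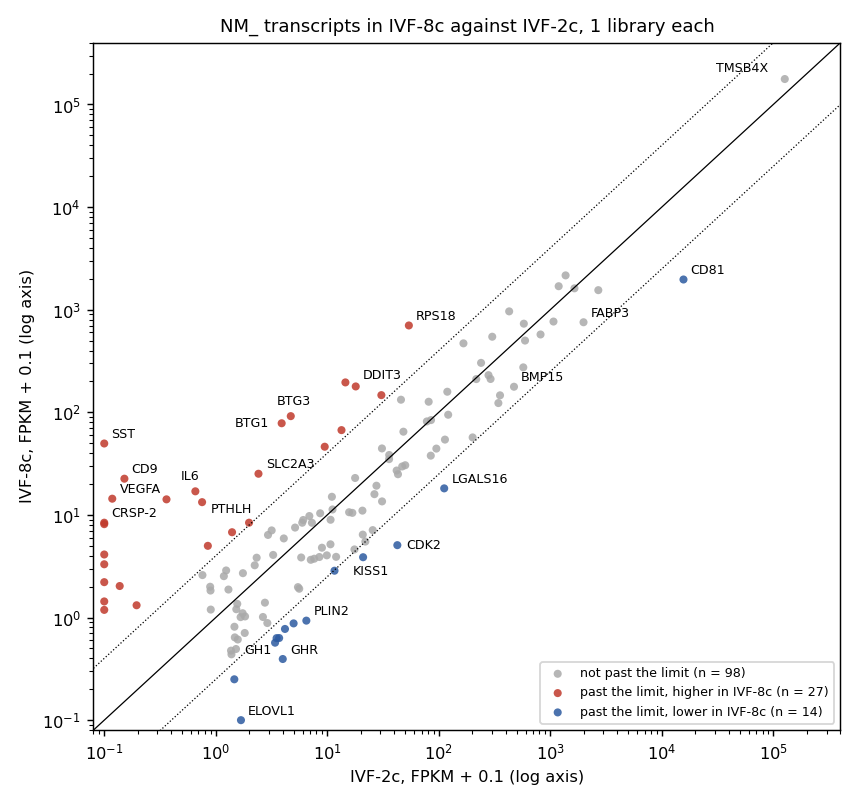
FPKM + 0.1 of the 139 members with at least 1 FPKM in IVF-2c (horizontal, log axis) or IVF-8c (vertical, log axis), 1 library each, where the solid line marks equal levels and the dotted lines a log2 ratio of 2 in size. Red points are the 27 members higher in IVF-8c, which reach up to RPS18 at 702 FPKM, and blue points are the 14 lower ones, led in level by CD81 at 15646 FPKM in IVF-2c.

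Oocyte growth factors and their receptor were lower in both 8-cell libraries, without passing the limit. BMP15 (NM_001285588.1), a growth factor secreted by the oocyte that acts on the surrounding follicle cells, was at 472.5 FPKM in the 2-cell library, 177.4 FPKM in IVF-8c beside 226.5 FPKM in SCNT-8c. Its partner GDF9 (NM_001285708.1) was at 354.1, 146.3 and 180.4 FPKM. BMPR1B, the receptor whose variants alter litter size in sheep, was at 11.9, 3.80 and 5.58 FPKM. The 3 log2 ratios of IVF-8c to IVF-2c were -1.41, -1.27 and -1.62, and they stayed below 0 after scaling, as did those of SCNT-8c to IVF-2c. Those of SCNT-8c to IVF-2c were -1.06, -0.97 and -1.08.

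The receptor KIT and its ligand differed. KIT, which on the oocyte receives the KITLG signal from granulosa cells, was at 16.7 FPKM in the 2-cell library, 10.4 FPKM in IVF-8c beside 10.5 FPKM in SCNT-8c. KITLG was at 30.8, 44.4 and 57.5 FPKM. No ratio of the pair passed the limit. The pigmentation list that holds them had 4 of 5 members at 1 FPKM or more and none past the limit in any comparison. MC4R, a melanocortin receptor, was at 1.37, 0.714 and 0.334 FPKM, and TYR, the first enzyme of melanin synthesis, was at 0.802, 1.096 and 0.567 FPKM.

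Among the other reproductive hormones, receptors and steroid enzymes 5 of 16 members reached 1 FPKM. Of these 1, KISS1, was lower past the limit between the IVF stages, beside 7.87% lower over all transcripts. KISS1 (NM_001285710.1), the peptide that drives release of gonadotropin-releasing hormone in the brain, was at 20.9 FPKM in the 2-cell library, 3.77 FPKM in IVF-8c beside 1.74 FPKM in SCNT-8c. It fell by 2.44 on the log2 scale in IVF-8c, and in SCNT-8c it fell by 3.51. TAC3, which encodes the neuropeptide neurokinin B, was at 48.1, 64.6 and 73.2 FPKM, and BMP4 was at 6.81, 9.66 and 7.57 FPKM. The gonadotropin subunit FSHB, the receptors FSHR and GNRHR and the aromatase gene CYP19A1 stayed under 1 FPKM in every library.

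The 14 members that fell in IVF-8c were led by a very abundant transcript. CD81 (NM_001285676.1), a tetraspanin of the cell surface, was at 15646 FPKM in the 2-cell library, 1969 FPKM in IVF-8c beside 4699 FPKM in SCNT-8c. It fell by 2.99 on the log2 scale between the IVF stages, whereas its ratio between SCNT-8c and IVF-2c was -1.74, inside the limit. CDK2 (NM_001285608.1), a kinase of the cell cycle, was at 42.4, 4.97 and 10.1 FPKM, with log2 ratios to IVF-2c of -3.07 in IVF-8c and -2.06 in SCNT-8c. LGALS16, a galectin, was at 111.8, 18.0 and 27.3 FPKM and was also below the limit in both 8-cell libraries, at -2.62 and -2.03. CD81, CDK2 and LGALS16 were all lowest in IVF-8c. With a pseudocount of 1 FPKM these genes, KISS1 and PLIN2 were the 5 of the 14 that stayed past the limit.

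Other falls were in transcripts at a few FPKM. RNASEH2B, a subunit of the RNase H2 enzyme that removes ribonucleotides from DNA, was at 3.41 FPKM in the 2-cell library, 0.530 FPKM in IVF-8c beside 0.764 FPKM in SCNT-8c. ASMT, the last enzyme of melatonin synthesis, was at 4.89, 0.777 and 1.35 FPKM. AKT1, a kinase of the insulin and growth factor pathway, was at 4.08, 0.674 and 1.56 FPKM. All 3 had their highest value in IVF-2c, and their log2 ratios of IVF-8c to IVF-2c were -2.48, -2.51 and -2.43.

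Lipid genes held 5 of the 14 falls, of which PLIN2 alone stayed past the limit with a pseudocount of 1 FPKM. Of 21 members in this list 14 reached 1 FPKM, and 5 of those 14 were lower in IVF-8c relative to IVF-2c and 1 was higher. Over all transcripts tested, 7.87% were lower and 11.9% higher. Of the 14, 12 had a ratio below 0 (11 after scaling). The median log2 ratio of the list was -1.46, beside -0.42 over all transcripts tested. In SCNT-8c against IVF-2c, 1 of 13 was lower and none was higher, beside 6.33% lower and 8.76% higher over all transcripts. Of the 13, 12 were below 0, and the median was -1.09, beside -0.36 over all transcripts. PLIN2 (NM_001285596.1), which coats lipid droplets, was at 6.39 FPKM in the 2-cell library, 0.833 FPKM in IVF-8c beside 1.71 FPKM in SCNT-8c, and it fell by 2.80 between the IVF stages. INSIG1, which holds the sterol sensor in the endoplasmic reticulum, was at 11.5, 2.76 and 4.92 FPKM and fell by 2.02 in IVF-8c, a call that ended after scaling at -1.64. These falls were accompanied by those of PNPLA2, the first lipase of stored triglyceride, at 1.37, 0.150 and 0.455 FPKM, and of AGPAT1, an enzyme of phosphatidic acid synthesis, at 3.60, 0.532 and 2.71 FPKM. As a gene sum AGPAT1 had a ratio of -1.09 between the IVF stages, inside the limit. ELOVL1, which lengthens fatty acids, was at 1.58 FPKM in IVF-2c, listed at 0 in IVF-8c and at 0.690 FPKM in SCNT-8c. Its XM_ transcript was at 3.38, 1.77 and 1.93 FPKM, and the gene sum had a ratio of -1.44 between the IVF stages, inside the limit.

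The most abundant lipid gene did not pass the limit. FABP3 (NM_001285701.1), which carries fatty acids within the cell, was at 1986 FPKM in the 2-cell library, 754.5 FPKM in IVF-8c beside 784.7 FPKM in SCNT-8c, with log2 ratios to IVF-2c of -1.40 and -1.34. ELOVL5, which lengthens polyunsaturated fatty acids, was at 41.8, 27.0 and 26.4 FPKM, and PPARGC1A, a coactivator of mitochondrial genes, was at 26.4, 15.8 and 14.6 FPKM. INSIG2, the paralogue of INSIG1, stayed level at 35.8, 34.9 and 35.2 FPKM. ADIPOR1, a receptor for adiponectin, was at 25.5, 7.01 and 5.73 FPKM and fell past the limit in SCNT-8c only by a small margin, at -2.13 against -1.85 in IVF-8c. The rise in the list was SCD, which desaturates fatty acids and was listed at 0 in IVF-2c, at 1.09 FPKM in IVF-8c and at 0.915 FPKM in SCNT-8c.

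Of the 5 translation members, 2 rose past the limit in IVF-8c and 1 in SCNT-8c, beside 11.9% and 8.76% over all transcripts. All 5 reached 1 FPKM, and all 5 had a ratio above 0 between IVF-8c and IVF-2c on either scaling. RPS18 (NM_001285639.1), a protein of the small ribosomal subunit, was at 53.8 FPKM in the 2-cell library, 702 FPKM in IVF-8c beside 560.3 FPKM in SCNT-8c, a rise of 3.70 and 3.38 on the log2 scale. RPS10 was at 427.7, 963.1 and 864.3 FPKM, and RPL21 was at 301.6, 545.2 and 552.4 FPKM. RPS18 started far below the other ribosomal members in IVF-2c and came close to them in both 8-cell libraries. RPSA was at 579.1, 730.5 and 911.7 FPKM. HNRNPK, which binds pre-mRNA, was at 0.749, 4.90 and 3.06 FPKM and passed the limit in IVF-8c.

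Regulators of proliferation and stress held several of the abundant rises. BTG1 (NM_001285677.1) and BTG3 (NM_001289948.1) belong to a family of proteins that slow proliferation and recruit the deadenylase complex to mRNA. BTG1 was at 3.80 FPKM in the 2-cell library, 78.1 FPKM in IVF-8c beside 43.8 FPKM in SCNT-8c. BTG3 was at 4.61, 91.7 and 99.2 FPKM. The log2 ratios of IVF-8c to IVF-2c were 4.33 for BTG1 and 4.29 for BTG3, and those of SCNT-8c to IVF-2c were 3.49 and 4.40, so both genes rose in both 8-cell libraries. DDIT3 (NM_001287231.1), a transcription factor of the endoplasmic reticulum stress response, was at 17.9, 178.6 and 73.7 FPKM and rose by 3.31 in IVF-8c and 2.04 in SCNT-8c. The list of transcription factors and antiproliferative regulators, chosen after values were seen, had 13 of 15 members at 1 FPKM or more. Of these, 4 were higher (BTG1, BTG3, DDIT3 and a KANSL2 record) and none was lower in IVF-8c. The shares over all transcripts were 11.9% higher and 7.87% lower. HIF1A, the factor of the hypoxia response, was at 46.9, 29.6 and 33.97 FPKM.

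Growth signalling outside these genes went both ways. In the cell cycle, death and growth list all 8 members reached 1 FPKM. In IVF-8c, 3 were higher (both VEGFA records among them) and 2 lower (CDK2 and AKT1). Shares over all transcripts were 11.9% higher and 7.87% lower. VEGFA (NM_001287035.1), the vascular endothelial growth factor, was at 0.0180 FPKM in the 2-cell library, 14.3 FPKM in IVF-8c beside 8.18 FPKM in SCNT-8c. Its second record (NM_001287034.1) was listed at 0 in IVF-2c and was at 3.21 FPKM in IVF-8c beside 2.18 FPKM in SCNT-8c. Both records thus appeared in both kinds of 8-cell embryo. MTOR, the growth kinase that AKT1 acts on, was at 5.51, 1.81 and 1.94 FPKM, and its substrate RPS6KB1 was at 5.99, 8.83 and 6.18 FPKM, and neither passed the limit.

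The surface and secreted factors CD9, IL6 and SEPP1 were under 1 FPKM at the 2-cell stage and present at the 8-cell stage. IL18 was present at both stages. CD9 (NM_001285671.1), a tetraspanin like CD81 and known for its need on the egg surface at fertilisation, was at 0.0516 FPKM in the 2-cell library, 22.4 FPKM in IVF-8c beside 8.74 FPKM in SCNT-8c. The 2 tetraspanins therefore ran in opposite directions between the IVF stages, at 7.22 for CD9 and -2.99 for CD81. IL6 (NM_001285640.1), a cytokine that also acts on early embryos, was at 0.556, 16.9 and 14.3 FPKM. IL18, another cytokine, was at 9.39, 46.1 and 25.5 FPKM, a rise of 2.28 in IVF-8c and a ratio of 1.43 in SCNT-8c. SEPP1, which encodes the selenium carrier selenoprotein P, was listed at 0 in IVF-2c and was at 4.02 FPKM in IVF-8c beside 3.10 FPKM in SCNT-8c.

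In the list of secreted peptide hormones and their receptors, added after values were seen, the rises also started under 1 FPKM. Peptide hormones held in other lists differed. SST was at 0 in IVF-2c, whereas TAC3, KISS1 and GH1 were at 48.1, 20.9 and 3.30 FPKM there. Of the 12 members in the secreted peptide list 5 reached 1 FPKM. In IVF-8c against IVF-2c, 3 of 4 that entered were higher, beside 11.9% over all transcripts. These 3 reached 1 FPKM only in the 8-cell libraries, so they entered through the library in which they were high. CRSP-1 (NM_001285634.1) and CRSP-2 (NM_001285687.1) encode calcitonin receptor-stimulating peptides, relatives of calcitonin gene-related peptide. CRSP-1 was at 0.262 FPKM in the 2-cell library, 14.1 FPKM in IVF-8c beside 10.6 FPKM in SCNT-8c. CRSP-2 was listed at 0 in IVF-2c and was at 8.30 FPKM in IVF-8c beside 41.2 FPKM in SCNT-8c. PTHLH (NM_001285753.1), the parathyroid hormone-like hormone, was at 0.654, 13.2 and 3.09 FPKM. The 3 peptides were all present in both 8-cell libraries, but CRSP-2 was highest in SCNT-8c and PTHLH in IVF-8c. CASR, the calcium-sensing receptor that regulates parathyroid hormone, was at 1.72, 0.607 and 0.872 FPKM.

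Transporter records with the NM_ prefix were few and low, and those that reached 1 FPKM rose in IVF-8c. SLC2A3 (NM_001285741.1), the high-affinity glucose transporter GLUT3, was at 2.32 FPKM in the 2-cell library, 25.1 FPKM in IVF-8c beside 16.6 FPKM in SCNT-8c, a rise of 3.38 and 2.78. ABCG2, an efflux pump, was at 0.0376, 1.93 and 0.685 FPKM. SLC39A3, a zinc importer, was listed at 0 in IVF-2c and was at 1.34 FPKM in IVF-8c beside 0.367 FPKM in SCNT-8c. ABCG2 and SLC39A3 reached 1 FPKM in IVF-8c only, so they entered the comparison through the library in which they were high. With a pseudocount of 1 FPKM their log2 ratios of IVF-8c to IVF-2c were 1.50 and 1.22, inside the limit. All 3 were highest in IVF-8c, and the other 3 members of the list stayed under 1 FPKM. For SLC39A1, among the latter, this held for its NM_ record only. An XM_ transcript of the gene was at 6.35, 2.07 and 2.48 FPKM, and the gene sum had a ratio of IVF-8c to IVF-2c of -1.57.

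**Figure D3:**
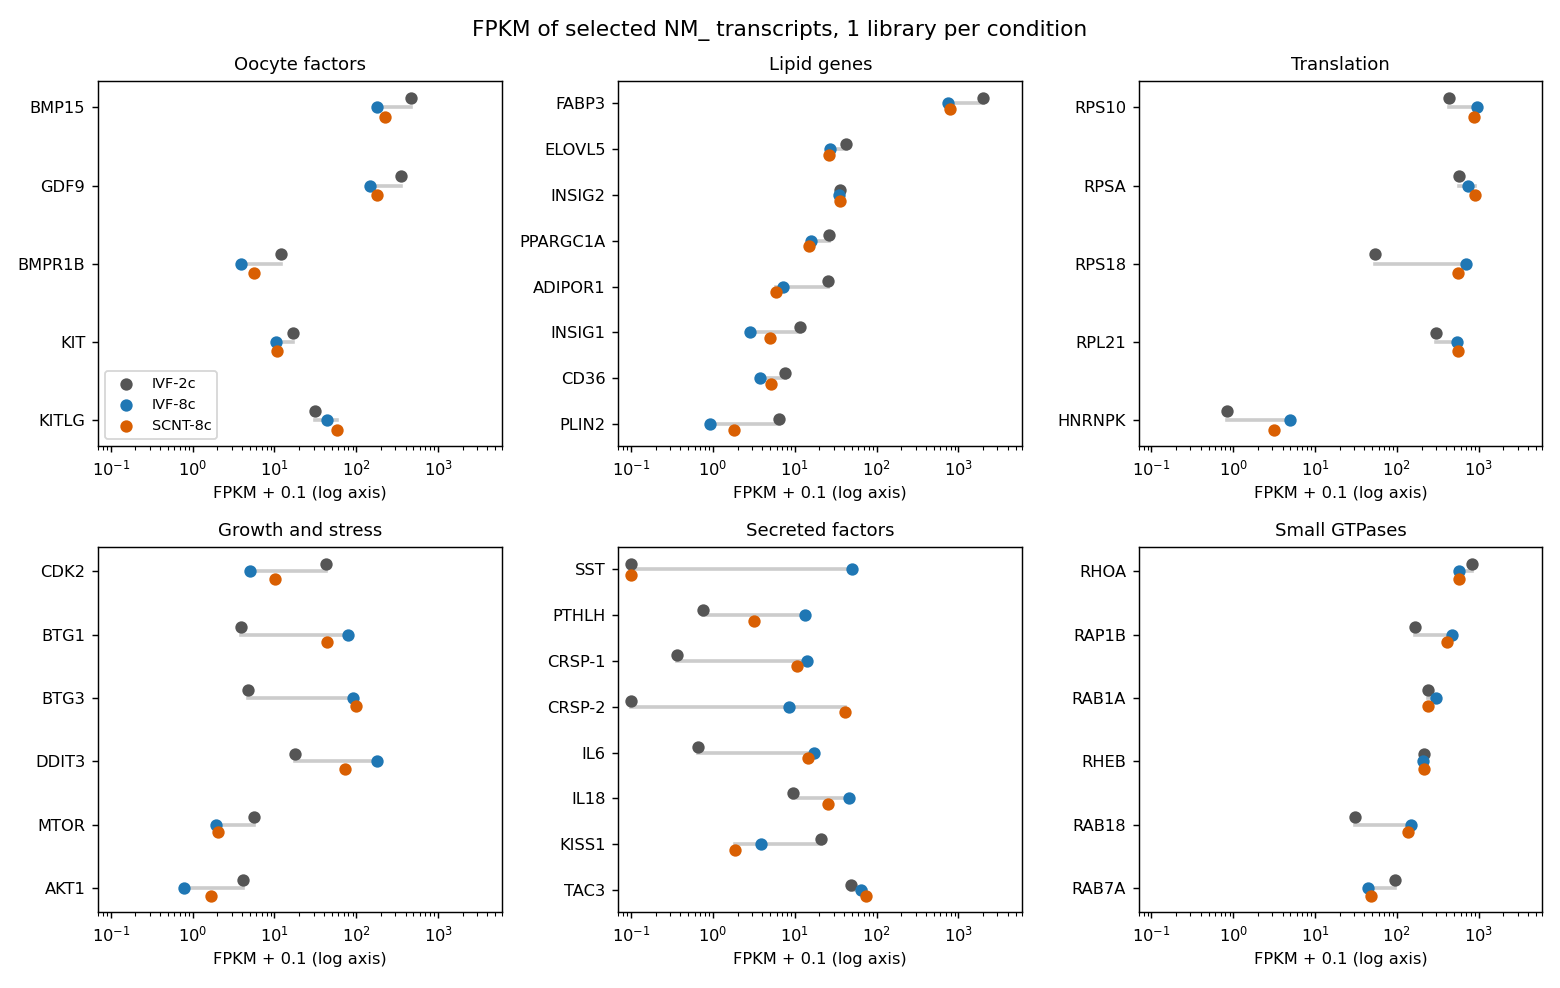
FPKM + 0.1 (log axis) of selected members in 6 groups, 1 library per condition, with IVF-2c in grey, IVF-8c in blue and SCNT-8c in orange, and a bar from the lowest to the highest library (a value listed at 0 sits at 0.1). The oocyte factors BMP15 and GDF9 and most lipid genes were highest in IVF-2c, the translation genes, BTG1, BTG3 and DDIT3 were lowest there, and RAB18 was the small GTPase past the limit.

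The growth hormone and IGF axis had 11 members, 6 of which reached 1 FPKM. GHR (NM_001285648.1), the growth hormone receptor, was at 3.89 FPKM in the 2-cell library, 0.294 FPKM in IVF-8c beside 1.12 FPKM in SCNT-8c, and it fell by 3.34 in IVF-8c. GH1, growth hormone itself, was at 3.30, 0.469 and 0.0395 FPKM and had log2 ratios of -2.58 for IVF-8c and -4.61 for SCNT-8c, both falls. POU1F1 (NM_001285673.1), the pituitary factor that switches on the growth hormone gene, was at 1.30, 6.68 and 6.85 FPKM and rose by 2.28 and 2.31. As a sum over both its transcripts POU1F1 was at 16.2, 16.7 and 29.4 FPKM, with ratios to IVF-2c of 0.05 and 0.86, so neither rise held for the gene. The hormone and its receptor were highest in IVF-2c. IGF1, the growth factor that growth hormone induces, was at 10.6, 8.87 and 7.67 FPKM and did not pass the limit. SST (NM_001287555.1), somatostatin, which inhibits growth hormone release, was listed at 0 in IVF-2c, reached 49.6 FPKM in IVF-8c and was again at 0 for SCNT-8c. Of the IGF binding proteins, IGFBP4 was listed at 0 throughout and IGFBP1 and IGFBP5 stayed under 1 FPKM.

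Of the small GTPases and vesicle proteins 1 was called. All 11 members reached 1 FPKM, and RAB18 was the one that passed the limit between IVF-8c and IVF-2c. It was higher in IVF-8c, as were 11.9% of all transcripts tested. RAB18, found on lipid droplets and the endoplasmic reticulum, was at 30.5 FPKM in the 2-cell library, 146.9 FPKM in IVF-8c beside 136.5 FPKM in SCNT-8c. RHOA, which organises actin, was at 817.5, 573.4 and 577.1 FPKM, RHEB, an activator of MTOR, was at 216.8, 210.6 and 217 FPKM, and RAB1A, of transport between the endoplasmic reticulum and the Golgi, was at 239.4, 303.1 and 241.5 FPKM. RHEB was nearly level over the 3 libraries. RAP1B, which acts on cell adhesion, had a log2 ratio of 1.50 between IVF-8c and IVF-2c, at 166.4, 469.9 and 411.1 FPKM.

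Polyamine control genes also kept within the limit. OAZ1, an antizyme that directs ornithine decarboxylase to the proteasome, was at 572.6 FPKM in the 2-cell library, 274 FPKM in IVF-8c beside 416.8 FPKM in SCNT-8c, and OAZ2 was at 27.5, 19.2 and 19.3 FPKM. The antizyme inhibitors AZIN1 and AZIN2 bind antizyme and free the decarboxylase. The 3 records of AZIN1 together were at 22.7, 32.8 and 44.5 FPKM, while AZIN2 was at 21.9, 5.40 and 11.2 FPKM. AZIN2 lay just inside the limit between the IVF stages. None of the 6 members at 1 FPKM or more was called in any of the 3 comparisons.

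Redox and energy genes had no call in any comparison. Of 7 stress and redox members 4 reached 1 FPKM and 3 (HMOX1, SOD3 and HSPA5) were listed at 0 throughout, and of 3 energy members 2 reached 1 FPKM and PRKAG3 was listed at 0. GPX4, which reduces lipid peroxides, was at 81.1 FPKM in the 2-cell library, 126.7 FPKM in IVF-8c beside 103.8 FPKM in SCNT-8c. HSP70.1, a heat shock protein used as a mark of genome activation, was at 84.7, 37.7 and 48.3 FPKM. SDHD, a subunit of respiratory complex II, was at 291.3, 211.2 and 160.9 FPKM. HSP70.1 was thus highest in the 2-cell library, with a log2 ratio of IVF-8c to IVF-2c of -1.16, inside the limit. LDH-A, the lactate dehydrogenase subunit of glycolysis, was at 201.1, 56.8 and 177 FPKM by its NM_ record, with IVF-8c lowest. Its log2 ratio of IVF-8c was -1.82 to IVF-2c and -1.64 to SCNT-8c. As a gene sum LDH-A was at 382, 182 and 314 FPKM, and these ratios were -1.07 and -0.79.

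Against IVF-2c, SCNT-8c had 22 of 137 members (16.1%) higher and 8 (5.84%) lower, beside a background of 8.76% and 6.33% among 13584 transcripts. Scaling moved the log2 ratio of an abundant transcript by 0.34 here and left 26 higher and 4 lower. The falls it ended were those of RNASEH2B, CDK2, LGALS16 and ADIPOR1, with scaled ratios of -1.70, -1.73, -1.69 and -1.80. Within a log2 ratio of 1 lay 71 members (51.8%). Above 1 were 34 of 137 members and below -1 were 32, beside 2086 and 3521 of 13584 transcripts. IVF-2c is the reference of both this and the previous comparison, so their values are not independent. The 12 largest rises here were CRSP-2, KRTAP11-1, both VEGFA records, CD9, SEPP1, CRSP-1, one PEG10 record, IL6, BTG3, MAP28 and BTG1. The 8 falls were GH1, URM1, one PEG10 record, KISS1, ADIPOR1, CDK2, LGALS16 and RNASEH2B. GHR, CD81, PLIN2 and INSIG1, which fell past the limit in IVF-8c, had ratios of -1.71, -1.74, -1.85 and -1.21 in SCNT-8c. As a gene sum GHR was past the limit in SCNT-8c, at -2.05, and inside it in IVF-8c, at -1.89.

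At the same stage the 2 kinds of embryo were closer. Between IVF-8c and SCNT-8c 7 of 135 members (5.19%) were higher in IVF-8c and 6 (4.44%) were lower, beside a background of 3.45% and 2.38% among 13022 transcripts. Within a log2 ratio of 1 lay 101 members (74.8%). Above 1 were 16 of 135 members and below -1 were 18, beside 1308 and 923 of 13022 transcripts. The median ratio was -0.04 for members and -0.02 for all transcripts tested. Scaling, a shift of 0.05 for an abundant transcript, left both counts as they were. Of the 13 members past the limit, 5 were listed at 0 in a library. With a pseudocount of 1 FPKM in place of 0.1, 3 of the 13 passed the limit, SST on the IVF-8c side and CRSP-2 and CXCL10 on the SCNT-8c side.

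**Figure D4:**
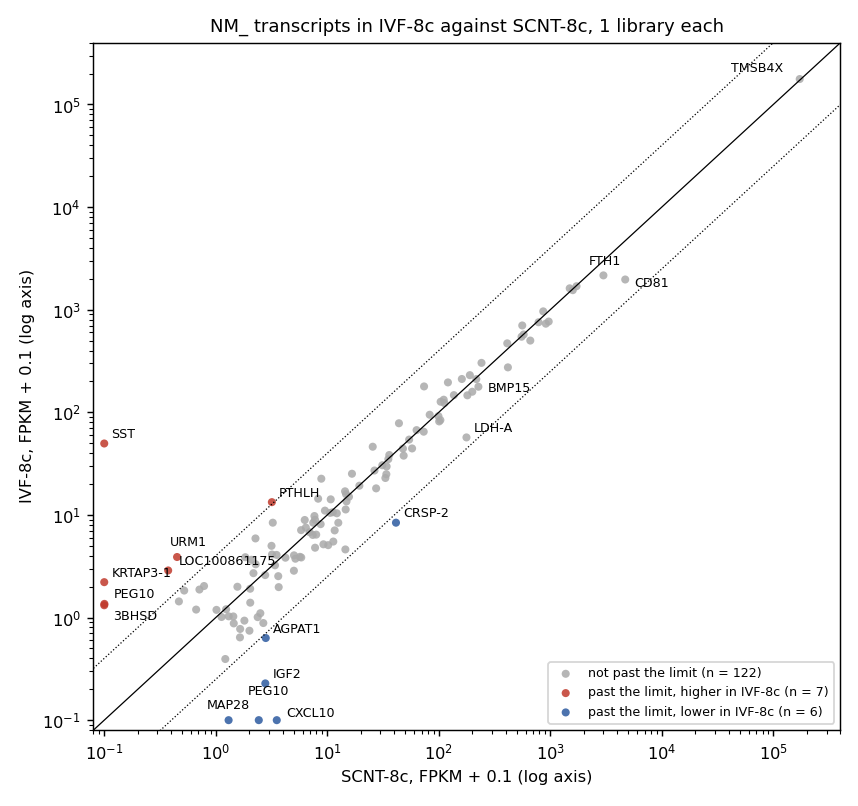
FPKM + 0.1 of the 135 members with at least 1 FPKM in SCNT-8c (horizontal, log axis) or IVF-8c (vertical, log axis), 1 library each, where the solid line marks equal levels and the dotted lines a log2 ratio of 2 in size. Red points are the 7 members higher in IVF-8c and blue points the 6 lower ones, and apart from SST at 49.6 FPKM in IVF-8c and CRSP-2 at 41.2 FPKM in SCNT-8c every one of them was under 15 FPKM in both libraries.

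The 7 members higher in IVF-8c were led by SST, with 49.6 FPKM in IVF-8c but listed at 0 for SCNT-8c. PTHLH, at 13.2 FPKM in IVF-8c against 3.09 FPKM for SCNT-8c, had a log2 ratio of 2.06. URM1, a ubiquitin-like protein that supplies sulphur for tRNA modification, was at 8.40 FPKM in the 2-cell library, 3.79 FPKM in IVF-8c beside 0.350 FPKM in SCNT-8c. URM1 thus differed from SST in that it was already present at the 2-cell stage, and its ratio of IVF-8c to SCNT-8c was 3.11. LOC100861175, listed without a named function, was at 1.14, 2.78 and 0.274 FPKM. The hair gene KRTAP3-1, at 2.11 FPKM, and the steroid enzyme gene 3BHSD, at 1.22 FPKM, were both listed at 0 in SCNT-8c. Other transcripts of 3BHSD were present, and its gene sum of 2.23 FPKM in IVF-8c against 0.582 FPKM for SCNT-8c had a ratio of 1.77, inside the limit. The seventh was a PEG10 record described below.

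The 6 members lower in IVF-8c relative to SCNT-8c were CRSP-2, CXCL10, AGPAT1, MAP28 and 1 record each of IGF2 and PEG10. CRSP-2 had a log2 ratio of -2.30. CXCL10, a chemokine that interferon induces, was at 0.778 FPKM in IVF-2c, listed at 0 in IVF-8c and at 3.43 FPKM in SCNT-8c. MAP28, an antimicrobial peptide of neutrophils, was listed at 0 in both IVF libraries and was at 1.20 FPKM in SCNT-8c. AGPAT1 had a ratio of -2.15 by its record and -0.58 by its gene sum, which was inside the limit. All of these except CRSP-2 were under 4 FPKM in both 8-cell libraries.

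IGF2, the insulin-like growth factor that is expressed from the paternal allele in many mammals, was the fetal growth gene of this group. Its record NM_001287042.1 was at 0.227 FPKM in the 2-cell library, 0.128 FPKM in IVF-8c beside 2.68 FPKM in SCNT-8c, a ratio of IVF-8c to SCNT-8c of -3.61. The second record (NM_001287041.1) was at 5.1e-05, 1.4e-05 and 0.755 FPKM. Summed, IGF2 was at 0.227, 0.128 and 3.44 FPKM. Fibroblast markers were read beside it because the donor nuclei were fibroblast nuclei: the 9 found summed to 89.4 FPKM in IVF-8c against 104 FPKM for SCNT-8c, with 7 and 8 of them at 1 FPKM or more. Of the 9, 7 had a higher value in SCNT-8c and 2, PDGFRA and THY1, a lower one. Of the 9 oocyte and early embryo markers found, 6 were higher in SCNT-8c and 3 lower. Of the 8 cumulus and granulosa cell markers found, 3 were higher and 4 lower. Over all 13022 transcripts tested, 6729 were higher in SCNT-8c and 6293 lower. After scaling 6290 were higher in SCNT-8c and 6732 lower. The marker counts came from gene sums without scaling. DCN was at 56.3 FPKM in IVF-8c against 57.4 FPKM for SCNT-8c, LUM at 9.53 against 15.7 FPKM and PDGFRA at 2.77 against 2.41 FPKM, and the part of fibroblast RNA in the IGF2 value was not tested.

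PEG10, another imprinted gene, gave opposite ratios for its 2 records. NM_001291297.1 was at 1.46 FPKM in the 2-cell library, 1.26 FPKM in IVF-8c beside 0.000335 FPKM in SCNT-8c. NM_001291299.1 was at 0.00146, 5.1e-05 and 2.33 FPKM. One record took nearly all of the signal in each library, NM_001291297.1 in both IVF libraries and NM_001291299.1 in SCNT-8c. Their sum was 1.46, 1.26 and 2.33 FPKM, with a log2 ratio of IVF-8c to SCNT-8c of -0.84, inside the limit. The gene therefore counted once on each side of this comparison through its records, and on neither side through its sum.

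The same check was made for the other members, since 81 of the 275 shared their gene with another transcript of the table and 194 were alone. Only 44.3% of XM_ transcripts could be paired with a symbol, so a gene sum is a lower limit. Summed over its 4 transcripts GHR was at 8.22 FPKM in the 2-cell library, 2.14 FPKM in IVF-8c beside 1.91 FPKM in SCNT-8c, and the ratio of IVF-8c to IVF-2c went from -3.34 to -1.89. CDK2 summed to 55.1, 14.2 and 19.2 FPKM, with a ratio of -1.95 in place of -3.07 and, for SCNT-8c against IVF-2c, of -1.52 in place of -2.06. For both genes the direction stayed and the size of these ratios dropped under the limit. The GHR ratio of SCNT-8c to IVF-2c went the other way, from -1.71 by its record to -2.05 by its gene sum, past the limit. AGPAT1 went from -2.55 to -1.09, GHITM, a mitochondrial membrane protein, from 2.32 to 1.20 (in SCNT-8c from 2.24 to 0.70), and the KANSL2 record NM_001287027.1 from 2.08 to 0.84.

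DDIT3, PTHLH and VEGFA kept their call between the IVF stages as sums. DDIT3 had an XM_ transcript at 228.4 FPKM in the 2-cell library, 1482 FPKM in IVF-8c beside 754.2 FPKM in SCNT-8c, far above the curated record, and the sum had a ratio of IVF-8c to IVF-2c of 2.75. Its sum in SCNT-8c had a ratio of 1.75 to IVF-2c, under the limit that the record passed at 2.04. PTHLH summed to 0.691, 24.3 and 9.35 FPKM, a ratio of 4.95 between the IVF stages. Between IVF-8c and SCNT-8c the PTHLH sum had a ratio of 1.37, inside the limit. VEGFA, whose records are both curated, summed to 0.0180, 17.5 and 10.4 FPKM.

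**Figure D5:**
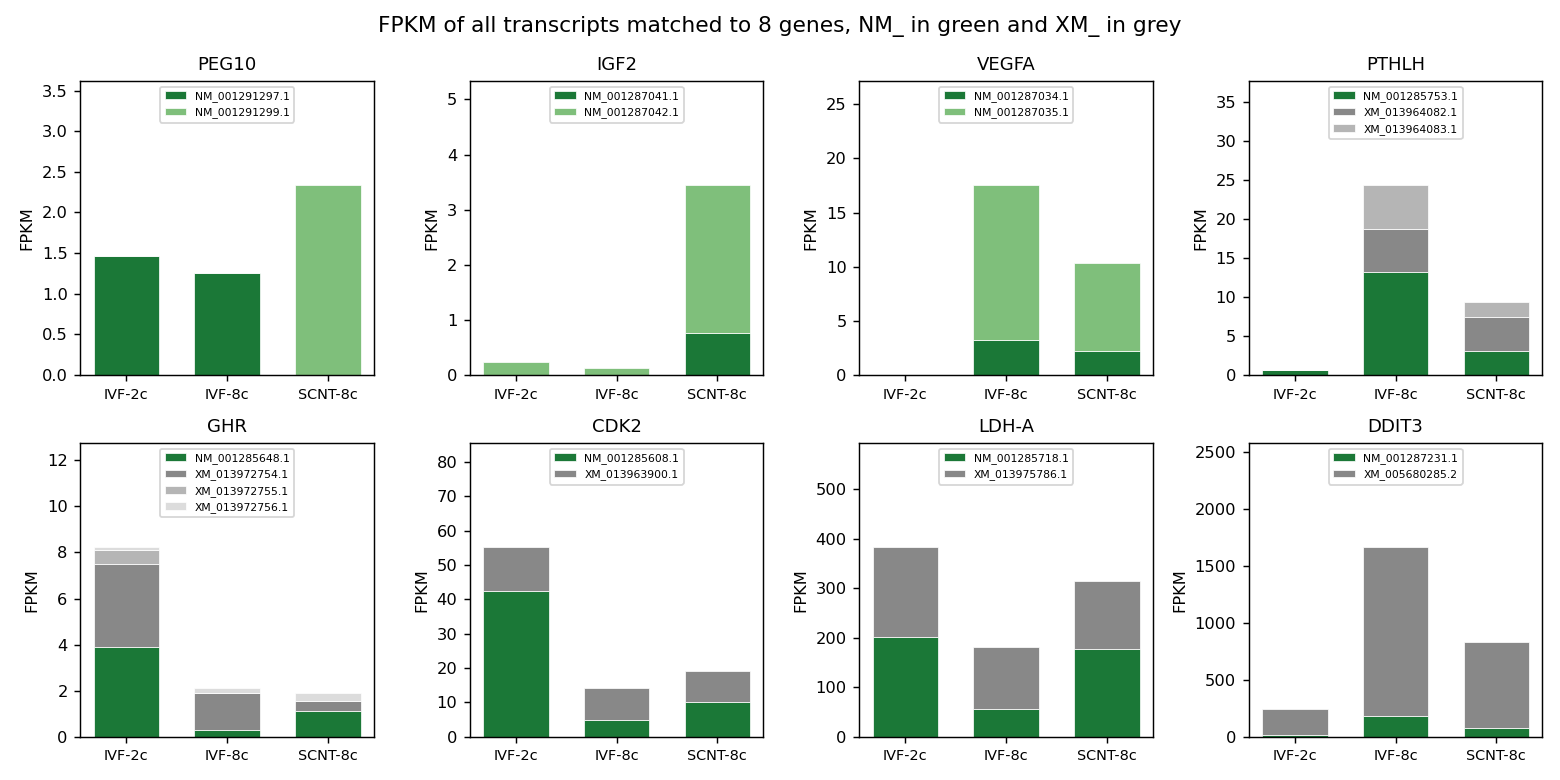
FPKM of every transcript matched to 8 genes, stacked per library (IVF-2c, IVF-8c, SCNT-8c), with NM_ records in green and XM_ records in grey. The PEG10 record seen in SCNT-8c was not the one seen in the IVF libraries, IGF2 was near 0 outside SCNT-8c (3.44 FPKM), and most DDIT3 signal lay in its XM_ transcript (1482 FPKM in IVF-8c).

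Members for adult tissues were mostly absent or low, and the exceptions were few. None of the 10 milk and mammary genes reached 1 FPKM in any library, with the highest value at 0.661 FPKM for LTF, the iron-binding lactoferrin, and 4 of the 10 were listed at 0 throughout, among them the casein genes CSN1S1 and CSN1S2. Of 34 immunity members 9 reached 1 FPKM. Among the 7 that entered IVF-8c against IVF-2c, 2 were higher (IL6 and IL18) and 2 lower (CD81 and LGALS16). The table as a whole had 11.9% higher and 7.87% lower. TLR8, a receptor for single-stranded RNA, was at 5.04 FPKM in the 2-cell library, 7.43 FPKM in IVF-8c beside 6.32 FPKM in SCNT-8c. The other toll-like receptor members, TLR1, TLR2, TLR4, TLR5, TLR6 and TLR9, stayed under 1 FPKM.

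Hair genes had 3 of 7 members at 1 FPKM or more. KRTAP11-1, a protein that cross-links hair keratin, was listed at 0 in IVF-2c and was at 8.03 FPKM in IVF-8c beside 8.62 FPKM in SCNT-8c. KRT25, a keratin of the inner root sheath, was at 7.02, 3.55 and 1.99 FPKM. KRTAP genes form a family of similar copies and their levels are uncertain for that reason.

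Muscle genes had 3 of 10 members at 1 FPKM or more, and none was called in any comparison. MYF5, a factor that commits cells to the muscle lineage, was at 35.8 FPKM in the 2-cell library, 38.3 FPKM in IVF-8c beside 35.9 FPKM in SCNT-8c. MYF6, which lies next to MYF5 in the genome, was at 11.0, 11.2 and 14.5 FPKM. TNNC1, a calcium-binding troponin, was at 0.660, 2.49 and 2.68 FPKM. MYF5 and MYF6 were level over the libraries, while MYOG, which acts after them in muscle differentiation, stayed at or under 0.101 FPKM. Of the other genes up to 2 places away in the ARS1.2 gene order, ACSS3 was the one with a matched transcript, and it was at 0.424, 0.424 and 0.193 FPKM.

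Of the pluripotency and lineage genes 2 of 8 members reached 1 FPKM. SOX2, a factor of the inner cell mass, was at 0.676 FPKM in the 2-cell library, 0.644 FPKM in IVF-8c beside 1.90 FPKM in SCNT-8c, and NANOG was at most 0.138 FPKM. PAG12, one of the pregnancy-associated glycoproteins of the ruminant placenta, was at 1.57, 0.910 and 2.28 FPKM, and 4 of the other 5 PAG members were listed at 0. None passed the limit. Matrix and fibroblast genes had 2 of 4 members at 1 FPKM or more, the proteoglycan gene DCN at 113.5, 54.1 and 54.1 FPKM and the phosphoprotein gene SPP1 at 2.14, 3.13 and 3.30 FPKM, again inside the limit.

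A value of 0 for a member was not always a value of 0 for its gene. Of the 51 members listed at 0 in all libraries, 18 had another transcript of the same gene in the table, and 5 of those genes summed to 1 FPKM or more in a library. HSPA5, the chaperone BiP of the endoplasmic reticulum that all cells use, was listed at 0 under its NM_ record, whereas its XM_ transcript was at 12.7 FPKM in the 2-cell library, 72.0 FPKM in IVF-8c beside 77.8 FPKM in SCNT-8c. LPL, lipoprotein lipase, had an XM_ transcript at 0.0303, 2.24 and 0.512 FPKM. SPARC, a matrix protein, had one at 4.93, 5.02 and 7.19 FPKM, and the remaining genes of the 5 were OGN and MAGED2.

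The remaining members that no list held were mostly metabolic and housekeeping genes. MGST3, a microsomal glutathione transferase, was at 342.2 FPKM in the 2-cell library, 123 FPKM in IVF-8c beside 112.2 FPKM in SCNT-8c. CYB5A, cytochrome b5, was at 593.6, 500.2 and 661.7 FPKM, and PDIA3, a chaperone of glycoprotein folding, was at 85.1, 83.9 and 103.2 FPKM. DIMT1, which methylates ribosomal RNA, was at 45.7, 132.6 and 110.6 FPKM. None of the ratios of MGST3, CYB5A, PDIA3 and DIMT1 passed the limit.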

How the data were processed

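The authors built 1 library per condition from amplified cDNA and sequenced it with paired-end reads. The submitters' processing notes name TopHat2 2.0.12, Bowtie2 2.2.3, Cufflinks 2.1.1 and Cuffdiff. The genome build is not given in the sources used here, so no coordinates are given. The values deposited by the authors are FPKM per transcript, and every value column had a sample. The lncRNA table and the fibroblast table of the series were not used.

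From the FPKM, log2 ratios with a pseudocount of 0.1 FPKM were computed (Python 3.11.15; pandas 2.3.3). Counting was tested on simulated data. Symbols came from the RefSeq table of assembly ARS1.2, matched by accession. The members and lists were chosen with earlier results of these data known. The genes named were the 12 largest rises and falls of each comparison, the 10 highest members of each library and up to 4 of each list. The 4 lists of polyamine genes, small GTPases, transcription factors and peptide hormones were added, and 4 genes moved between lists, after their values were seen. Other members in the text that this rule does not reach (such as AKT1, INSIG1, MTOR, SCD, HNRNPK, RAB18, RHEB, GHITM, KANSL2, MYOG, TLR8, MGST3, PDIA3, DIMT1, HSPA5 and LPL) were also named after their values were seen. No sequence is shown, and 1 member that the rule names is not reported here. Alternatives are given in the closing section.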

Additional observations from a re-analysis of the deposited data

How the results depend on the processing

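With a pseudocount of 1 FPKM, 5 members were lower in IVF-8c against IVF-2c in place of 14, 14 were higher and 3 lower in SCNT-8c against IVF-2c in place of 22 and 8, and 1 was higher and 2 lower in IVF-8c against SCNT-8c in place of 7 and 6. With no minimum FPKM, 23 were lower in IVF-8c against IVF-2c and 14 lower in SCNT-8c against IVF-2c, and 14 were higher and 10 lower in IVF-8c against SCNT-8c. With a minimum of 5 FPKM these 4 counts were 6, 5, 2 and 1. With a log2 limit of 1, 43 were lower in IVF-8c against IVF-2c, 34 higher and 32 lower in SCNT-8c against IVF-2c, and 16 higher and 18 lower in IVF-8c against SCNT-8c. Median-ratio scaling gave 4 lower in SCNT-8c against IVF-2c. Gene sums, and leaving out transcripts listed at 0 in either library (chosen after seeing the data), each gave 4 higher in IVF-8c against SCNT-8c. The count of 27 higher in IVF-8c against IVF-2c moved by less than 1.5 times under all of these. Of named calls, 22 of 34 (IVF-8c against IVF-2c), 15 of 28 (SCNT-8c against IVF-2c) and 3 of 13 (IVF-8c against SCNT-8c) remained with a pseudocount of 1. As a gene sum PEG10 NM_001291297.1 reversed, from -3.96 to 0.64 (SCNT-8c against IVF-2c) and from 3.76 to -0.84 (IVF-8c against SCNT-8c), since the sum holds its second record. Otherwise the cause was not tested. No paired analysis was possible because each condition had 1 library. Unknown depth limits calls near 1 FPKM.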
